A study of Rattus norvegicus with 9 samples.

Results

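The genes described here are the 48 rat genes of DNA replication and S phase on a list fixed by name, among 18733 genes measured in the hippocampus. All 48 symbols were found in the tables. The list covers the machinery that licenses origins, unwinds and copies DNA, supplies nucleotides, rebuilds chromatin behind the fork and drives the entry into S phase. Messenger RNA was sequenced from hippocampal tissue of 9 male rats, 3 in each of 3 groups, with 1 library per rat. The taVNS rats had a middle cerebral artery occlusion (MCAO, a surgical model of ischaemic stroke), were included for impaired cognition in behavioural tests with a stated limit of 20% of the control mean, and then received 14 days of transcutaneous auricular vagus nerve stimulation, in which the vagal fibres of the ear are stimulated electrically through the skin. The PSCI rats (post-stroke cognitive impairment) had the same surgery and passed the same inclusion step, were assigned at random, and were fed normally without stimulation. The control rats were fed normally. Both stroke groups therefore share the occlusion and the selection on behaviour. Strain, age, the hemisphere taken, and whether the control rats had sham surgery or the PSCI rats sham stimulation are not given in the labels.

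The libraries held 13747389 to 15415694 counts, and a floor of 3 counts lay at 0.195 to 0.218 CPM (counts scaled to library size). The tissue carried markers of hippocampal excitatory neurons: Slc17a7, the vesicular glutamate transporter of these cells, stood at 1210 to 2080 CPM in all libraries. Libraries taVNS 3 and PSCI 2 stood apart, with summed levels of 8 meningeal and fibroblast markers of 418 and 297 CPM, against 56.0 to 95.6 CPM in the other 7 libraries. Results on the replication genes were therefore also computed without both.

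Replication starts when the origin recognition complex (Orc1 and Orc6 are subunits), Cdc6 and Cdt1 load the ring of Mcm2 to Mcm7 onto DNA. Cdc45 and the GINS complex turn the loaded ring into an active helicase, the clamp loader places the sliding clamp Pcna, and the polymerases with primase copy the strands. Many of these genes are transcribed in late G1 under E2F transcription factors. Most cells of the adult hippocampus do not divide. Dividing cells known there include neural progenitors, oligodendrocyte precursors and, after injury, glia and invading immune cells.

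Promoter sequences are shown for helicase, loading and GINS genes because their windows hold E2F words. They were picked with the calls known: the first 6 genes were called in both comparisons below, and Mcm7, a ring gene that was called in neither, follows them. The windows run from 250 bases before to 50 bases after the annotated start, as given by RefSeq on the assembly GRCr8, and are written on the gene's strand, 5′ to 3′. Capitals mark matches to TTTCCCGC, TTTGGCGC, TTTCGCGC or TTTGCCGC or to the reverse complement of one of them. Matches may overlap each other, and then form 1 longer run of capitals.
Mcm5 (chr19:13488563-13488862, plus strand): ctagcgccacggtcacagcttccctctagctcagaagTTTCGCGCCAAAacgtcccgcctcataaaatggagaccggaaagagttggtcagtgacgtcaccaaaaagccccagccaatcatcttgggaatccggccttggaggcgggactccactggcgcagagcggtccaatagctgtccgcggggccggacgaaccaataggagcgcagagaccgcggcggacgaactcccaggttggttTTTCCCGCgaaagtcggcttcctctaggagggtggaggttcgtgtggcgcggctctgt
Mcm3 (chr9:30733697-30733996, minus strand): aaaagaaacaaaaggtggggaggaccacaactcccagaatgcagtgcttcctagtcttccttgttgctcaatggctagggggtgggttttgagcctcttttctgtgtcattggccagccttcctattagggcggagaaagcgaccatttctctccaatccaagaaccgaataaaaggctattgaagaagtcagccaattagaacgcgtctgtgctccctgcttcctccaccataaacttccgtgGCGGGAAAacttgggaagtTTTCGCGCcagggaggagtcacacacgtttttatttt
Mcm6 (chr13:42404303-42404602, minus strand): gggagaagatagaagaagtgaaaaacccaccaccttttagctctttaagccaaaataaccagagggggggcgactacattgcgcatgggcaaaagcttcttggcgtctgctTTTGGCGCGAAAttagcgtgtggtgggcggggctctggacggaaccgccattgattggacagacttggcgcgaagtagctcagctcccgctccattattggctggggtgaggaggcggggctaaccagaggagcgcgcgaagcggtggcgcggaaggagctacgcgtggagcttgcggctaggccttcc
Mcm2 (chr4:122918045-122918344, minus strand): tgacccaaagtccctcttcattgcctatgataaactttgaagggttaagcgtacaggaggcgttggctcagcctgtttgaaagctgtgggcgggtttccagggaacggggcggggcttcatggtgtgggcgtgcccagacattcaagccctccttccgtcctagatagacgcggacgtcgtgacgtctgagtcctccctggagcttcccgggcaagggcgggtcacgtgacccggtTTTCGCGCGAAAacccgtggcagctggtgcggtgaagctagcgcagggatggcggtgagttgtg
Cdt1 (chr19:67528999-67529298, plus strand): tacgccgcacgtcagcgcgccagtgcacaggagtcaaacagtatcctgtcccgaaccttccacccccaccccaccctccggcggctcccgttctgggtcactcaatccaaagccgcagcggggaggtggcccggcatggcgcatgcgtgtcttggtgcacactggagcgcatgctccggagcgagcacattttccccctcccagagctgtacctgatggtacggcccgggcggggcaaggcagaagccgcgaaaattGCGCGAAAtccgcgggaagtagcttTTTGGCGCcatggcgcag
Gins1 (chr3:160184670-160184969, plus strand): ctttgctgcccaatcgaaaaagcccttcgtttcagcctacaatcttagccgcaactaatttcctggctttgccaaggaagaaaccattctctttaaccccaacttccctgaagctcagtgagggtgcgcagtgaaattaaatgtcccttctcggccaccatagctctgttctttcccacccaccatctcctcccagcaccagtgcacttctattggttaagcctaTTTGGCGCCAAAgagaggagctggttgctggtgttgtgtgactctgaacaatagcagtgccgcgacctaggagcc
Mcm7 (chr12:22163129-22163428, minus strand): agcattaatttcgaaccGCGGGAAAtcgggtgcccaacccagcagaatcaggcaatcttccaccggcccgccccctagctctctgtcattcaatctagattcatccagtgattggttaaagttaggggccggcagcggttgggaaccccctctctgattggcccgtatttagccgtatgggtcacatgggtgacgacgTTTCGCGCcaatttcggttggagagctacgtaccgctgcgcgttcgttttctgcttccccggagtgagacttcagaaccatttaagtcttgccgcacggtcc
The windows of Mcm10 and Prim1 are shown for contrast. Mcm10 was called higher in PSCI and Prim1 was not, and neither window held one of these words. Only exact matches were counted. The Mcm10 window holds tttggcgg, which differs from TTTGGCGC at 1 base. The Prim1 window holds gttcccgc, which differs from TTTCCCGC at 1 base. Neither was counted.
Mcm10 (chr17:78175137-78175436, plus strand): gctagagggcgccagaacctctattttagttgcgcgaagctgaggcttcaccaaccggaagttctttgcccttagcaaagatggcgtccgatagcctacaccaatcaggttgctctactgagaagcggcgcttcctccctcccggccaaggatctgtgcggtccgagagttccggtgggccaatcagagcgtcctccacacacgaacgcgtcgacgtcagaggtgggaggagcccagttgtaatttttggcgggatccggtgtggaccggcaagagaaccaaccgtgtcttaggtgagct
Prim1 (chr7:1031212-1031511, plus strand): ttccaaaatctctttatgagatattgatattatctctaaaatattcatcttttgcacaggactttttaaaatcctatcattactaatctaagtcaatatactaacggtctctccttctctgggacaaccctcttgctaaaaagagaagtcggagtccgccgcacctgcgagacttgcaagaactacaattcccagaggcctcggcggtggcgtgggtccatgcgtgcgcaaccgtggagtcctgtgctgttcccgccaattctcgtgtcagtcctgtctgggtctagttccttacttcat
In the Mcm5 window 2 words overlapped far upstream and 1 more word ended right at the start, at positions -8 to -1 (position 0 is the first base after the 250 upstream bases). The Mcm2 window held 2 overlapping words at -14 to -3, the Gins1 window 2 at -25 to -14, and the Mcm6 window 2 at -139 to -128. The Mcm3 window held 1 word across the start at -6 to 1 and 1 at 13 to 20. Both words of Cdt1 lay after the start, at 7 to 14 and 32 to 39, and those of Mcm7 before it, at -233 to -226 and -52 to -45.

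A promoter window was found for 40 of the 48 members, and 18 of these 40 (45%) held at least 1 E2F word. Of all 27457 genes with such a window, 2.37% held one, and of the 14930 among them that were measured here, 3.5% did. The share was 35.4% among 65 other replication genes and 5.56% among 18 mitosis genes. The 28 words in the 18 members had a median position of -17, and 21 of them lay from 100 bases before the start to the end of the window. CCAAT, the core of the NF-Y box, searched on both strands, occurred in 62.5% of the members with a window and in 39.6% of all genes with one. Its share was 46.2% among the other replication genes and 72.2% among the mitosis genes. CCAAT occurred in 19 of 26 members called higher in PSCI (73.1%) and in 6 of 14 not called (42.9%), a difference that was not tested. Among members called higher in PSCI 12 of 26 (46.2%) held an E2F word, and among members not called 6 of 14 (42.9%) did. The median log2 fold change, PSCI over control, was 1.80 for the 18 members with a word and 1.21 for the 22 without. These are counts of letters in a window and show no binding. Orc1, Cdc6, Mcm4, Gins4, Rrm2, E2f1, E2f8 and Ccne2 had no window to search.

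Most replication genes had more RNA in PSCI hippocampus than in control hippocampus, and none was called lower. A gene was called at an adjusted p under 0.05 (edgeR's quasi-likelihood F test, Benjamini-Hochberg adjustment over all 14840 genes tested). Of the 48 members, 31 were called higher in PSCI and 0 lower. Over all genes tested, 7.71% were called higher and 2.14% lower (9.85% in either direction). The members' median log2 fold change was 1.44, against -0.00 over all genes, and fitted values ran from 0.04 (Prim1) to 4.44 (Mcm5), leaving aside E2f8, which had no counts in control. For 42 members all 3 PSCI libraries lay above all 3 control libraries, which held for 16.2% of all genes. The groups overlapped for Fen1, Mcm7, Orc6, Prim1, Rfc2 and Rfc4. In bulk tissue, more cells of a type and more RNA per cell cannot be told apart. All 48 members passed the filter on low counts, 6 of them (Orc1, Pole2, Exo1, Parpbp, E2f7 and E2f8) only through the PSCI libraries. Such genes had to differ, and all 6 are counted in the median and among the separated members above. Of the other 42 members 27 were called. The count of calls was 19, 12 and 15 without control 1, 2 or 3. It was 41, 24 and 21 without PSCI 1, 2 or 3, and 18 when only the PSCI and control libraries were fitted. The calls over all genes, 1461 in the main fit, also changed: to 922, 635 and 548 without control 1, 2 or 3. They were 2255, 1201 and 785 without PSCI 1, 2 or 3, and 806 when only the PSCI and control libraries were fitted.

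**Figure D1:**
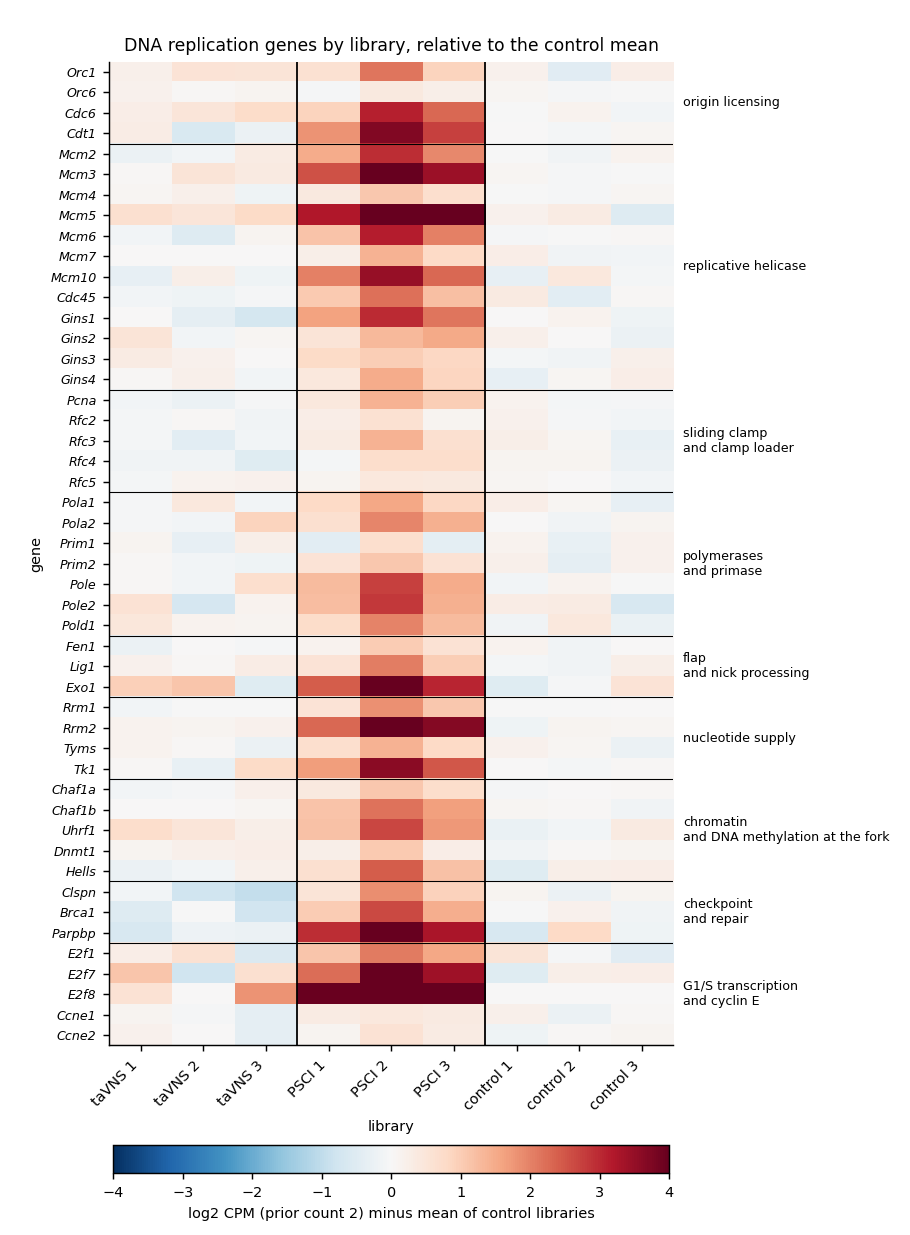
Colours give the log2 CPM of each of the 48 genes (rows, by role) in each of the 9 libraries (columns), minus the mean of the 3 control libraries, on a scale that ends at 4 in either direction. The 3 PSCI columns are red for most genes, PSCI 2 most deeply, while the taVNS columns stay near the control columns.

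The stimulated rats lay close to control for these genes. In taVNS hippocampus 25 of the 48 members were called lower than in PSCI and 0 higher, where 4.91% of all genes were called lower and 0.842% higher (5.75% in either direction). The median log2 fold change, taVNS over PSCI, was -1.24. For 41 members all taVNS libraries lay below all PSCI libraries, which held for 15.2% of all genes. These 41 and the median include the 6 members that passed the filter only through PSCI. Of the 42 members that did not depend on PSCI to pass the filter, 21 were called lower. The count was 6, 7 and 11 without taVNS 1, 2 or 3, 39, 19 and 12 without PSCI 1, 2 or 3, and 20, 15 and 20 without control 1, 2 or 3. It was 15 without PSCI 2 and taVNS 3 together. The calls over all genes, 854 in the main fit, also changed: to 172, 254 and 313 without taVNS 1, 2 or 3. They were 1707, 670 and 375 without PSCI 1, 2 or 3. Without control 1, 2 or 3 they were 690, 488 and 638, and without PSCI 2 and taVNS 3 together 361. This comparison and PSCI against control share the 3 PSCI libraries, so that a high PSCI value enters both. Members called in both numbered 23. Cdc6, E2f1, Gins2, Gins3, Lig1, Pola1, Pola2 and Pold1 were called in PSCI against control alone, and Clspn and Prim2 in taVNS against PSCI alone.

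Between taVNS and control, 0 of the 48 members were called by edgeR, and 0 genes of all. At an unadjusted p under 0.05 there were 557 genes (3.75%), 0 of them members. DESeq2 called 9 genes and limma-voom 0, and neither called a member. Leaving aside E2f8, the log2 fold changes, taVNS over control, ran from -0.84 (Parpbp) to 0.93 (Exo1) with a median over the members of 0.04, and 41 members lay within 0.5 of 0. Their standard errors ran from 0.132 to 0.899 with a median of 0.336, so that smaller differences could not be resolved for most members. In Cdc6, Mcm5 and Rrm2 all 3 taVNS libraries lay above all 3 control libraries, against 5.74% of all genes, and in 0 members they all lay below, against 5.4% of all genes.

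**Figure D2:**
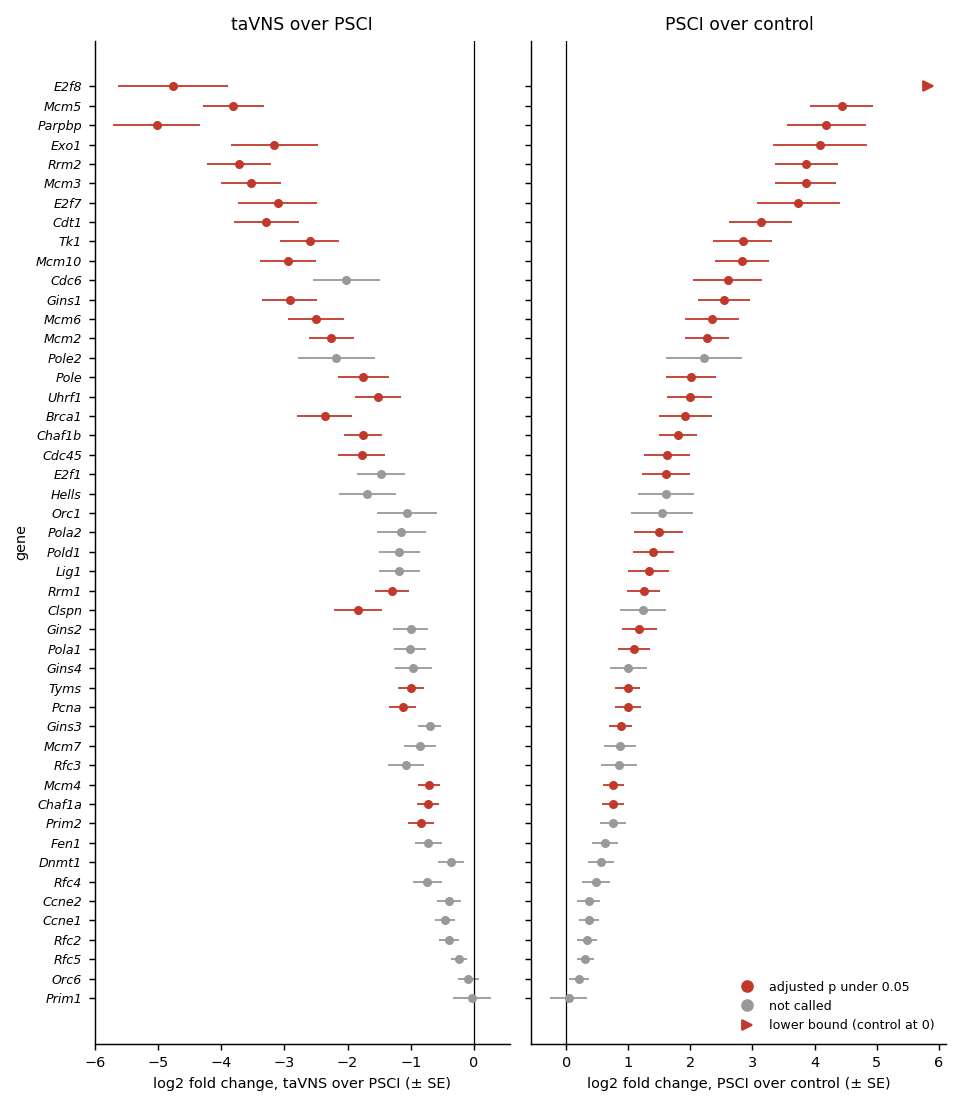
Points give the log2 fold change with its standard error for each of the 48 genes, taVNS over PSCI on the left and PSCI over control on the right, in red where the adjusted p was under 0.05. E2f8, with no control counts, is drawn as a triangle at its lower bound. All points lie below 0 on the left and above 0 on the right, with Prim1 and Orc6 nearest to 0.

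Among the 4 licensing genes, Cdc6 and Cdt1 rose in PSCI and the origin recognition subunits Orc1 and Orc6 were not called. Cdt1, which brings the MCM ring to origins, had 1.05, 0.490 and 0.683 CPM in taVNS libraries, 3.20, 12.4 and 6.33 CPM in PSCI libraries and 0.828, 0.779 and 0.882 CPM in control libraries. All PSCI libraries were above all others, and the taVNS and control values overlapped. Its log2 fold change was 3.13 ± 0.51 (SE, edgeR adjusted p = 0.00676) in PSCI over control and -3.29 ± 0.51 (adjusted p = 0.00945) in taVNS over PSCI. Without PSCI 2 these were 2.51 and -2.67, both still called. Cdc6, the other loading factor, had 0.701, 0.839 and 1.02 CPM in taVNS, 1.16, 5.99 and 3.33 CPM in PSCI and 0.552, 0.637 and 0.514 CPM in control. It was called in PSCI (log2 fold change 2.60 ± 0.56, adjusted p = 0.0200) but not in taVNS against PSCI (-2.02 ± 0.53, adjusted p = 0.0598). Its call in PSCI was lost without PSCI 3 or any 1 control library, with an adjusted p of up to 0.0823 over the alternatives, and the value was 1.97 without PSCI 2. Orc6 showed the contrast, with 6.80, 6.29 and 6.49 CPM in taVNS, 5.86, 7.97 and 7.05 CPM in PSCI and 6.42, 5.81 and 5.95 CPM in control. Its groups overlapped in PSCI against control (log2 fold change 0.20 ± 0.16, adjusted p = 0.497).

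The helicase genes were the largest role group. Of its 12 members 10 rose in PSCI and 8 fell in taVNS against PSCI, with medians of 1.95 and -2.02. Over all genes 7.71% were called higher in PSCI and 4.91% lower in taVNS against PSCI. The 6 genes of the ring, whose products sit in it in equal numbers, behaved unequally. Mcm5 had 1.96, 1.75 and 2.12 CPM in taVNS, 12.1, 47.4 and 22.5 CPM in PSCI and 1.38, 1.56 and 0.808 CPM in control. The lowest PSCI library was well above every other library, and all taVNS libraries also lay above control. Its log2 fold change was 4.44 ± 0.51 (edgeR adjusted p = 0.00191) in PSCI over control, a 21.7-fold increase, and -3.81 ± 0.48 (adjusted p = 0.00450) in taVNS over PSCI. Mcm3 had 1.68, 2.38 and 2.12 CPM in taVNS, 10.3, 42.6 and 18.7 CPM in PSCI and 1.73, 1.56 and 1.62 CPM in control. It rose by a log2 value of 3.86 ± 0.49 (adjusted p = 0.00286) in PSCI and was at -3.53 ± 0.48 (adjusted p = 0.00569) in taVNS over PSCI. Without PSCI 2, the fold changes in PSCI over control were 3.78 for Mcm5 and 3.14 for Mcm3, and those in taVNS over PSCI were -3.15 and -2.81, all still called.

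At the other end of the ring stood Mcm4 and Mcm7. Mcm4 had 29.1, 32.0 and 24.5 CPM in taVNS, 36.6, 59.1 and 44.4 CPM in PSCI and 27, 26.8 and 29.2 CPM in control. Its PSCI libraries were above all others by a modest margin, with a log2 fold change of 0.76 ± 0.17 (edgeR adjusted p = 0.0263) over control and -0.71 ± 0.17 (adjusted p = 0.0465) in taVNS over PSCI. The call in PSCI was lost without PSCI 3 or any 1 control library (adjusted p up to 0.0904 over the alternatives), and the call in taVNS was lost on leaving out each single library but PSCI 1 (up to 0.186). Mcm7 had 16.3, 16.2 and 16.3 CPM in taVNS, 18.7, 41.7 and 28.0 CPM in PSCI and 19.3, 14.4 and 14.6 CPM in control. PSCI 1 lay below control 1, and the gene was not called in PSCI against control (0.87 ± 0.25, adjusted p = 0.0617). Mcm2 and Mcm6 were called in both comparisons, with log2 fold changes of 2.27 and 2.35 in PSCI over control and -2.26 and -2.50 in taVNS over PSCI. Mcm6 was at 1.67 and -1.82 without PSCI 2 and lost its call in PSCI without control 2 or 3 (adjusted p up to 0.0560 over the alternatives), and both genes lost their call in taVNS without taVNS 1 or 2 (up to 0.0581 for Mcm2 and 0.0748 for Mcm6).

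Per gene length the ring genes lay far apart in control and taVNS and close together in PSCI. In RPKM, the authors' counts scaled for gene length and depth, the mean of Mcm4 was 9.33 ± 1.01 in taVNS, 15.6 ± 4.4 in PSCI and 8.85 ± 0.48 in control (SD, n = 3 each). The mean of Mcm5 was 0.690 ± 0.076 in taVNS, 9.97 ± 7.00 in PSCI and 0.433 ± 0.129 RPKM in control. Within a library the highest of the 6 genes exceeded the lowest by 15.1, 16.6 and 10.8 times in taVNS, by 3.09, 1.56 and 2.21 times in PSCI and by 18.7, 15.9 and 32.4 times in control. The 3 PSCI ratios were below all 6 others. This is a description of levels, with no test.

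**Figure D3:**
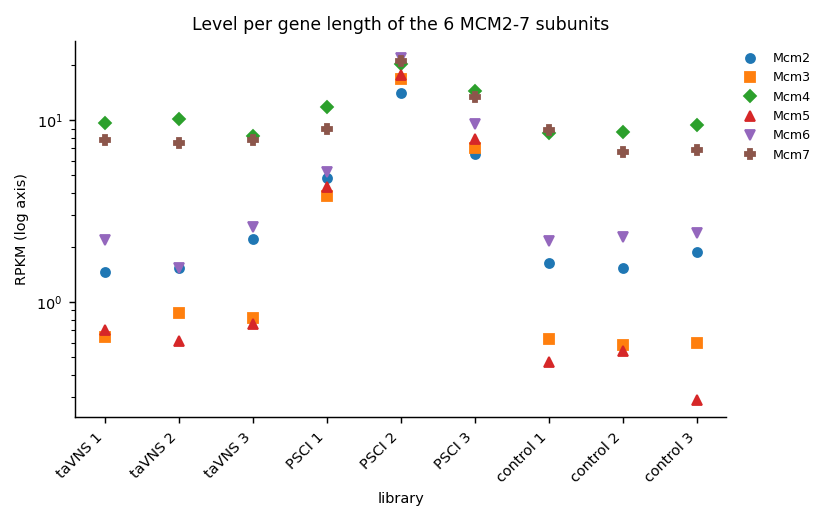
Points give the RPKM (log axis) of the 6 MCM ring genes in each library. In taVNS and control libraries Mcm4 and Mcm7 lie well above Mcm3 and Mcm5, and in PSCI 2 all 6 lie within 1.56 times of each other.

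Mcm10, a factor that acts with the helicase when origins fire, is given in both units because its count and RPKM tables differ. Its counts were 13, 20 and 15 in taVNS, 75, 226 and 98 in PSCI and 13, 23 and 15 in control. Its RPKM was 0.17, 0.27 and 0.16 in taVNS, 1.13, 3.86 and 1.52 in PSCI and 0.13, 0.27 and 0.18 in control. In both units the PSCI libraries were above all others and taVNS and control overlapped. By counts the log2 fold change was 2.83 ± 0.44 (edgeR adjusted p = 0.00615) in PSCI over control and -2.95 ± 0.44 (adjusted p = 0.00825) in taVNS over PSCI, the second lost without taVNS 1 (adjusted p up to 0.0508 over the alternatives) and at -2.36 without PSCI 2. The log2 ratio of group means in PSCI over control was 2.84 from CPM and 3.49 from RPKM, a gap of 0.60 after centring on all genes. Among 44 members with at least 0.1 RPKM in each group, Mcm10 was the 1 member whose gap passed 0.25, which held for 1.22% of all genes examined. In taVNS over PSCI Mcm10 (-2.96 from CPM, -3.44 from RPKM) and Pole2 (-2.19 and -2.70) passed it among 45 members examined, against 1.11% of all genes. In these comparisons the sign was the same in both units for every member examined, and in taVNS over control, where the differences are small, for 40 of 44 members (not for Mcm10). E2f8, Exo1 and Parpbp were not examined in either comparison, nor E2f7 in PSCI against control.

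Of the other helicase factors, Gins1, a GINS subunit, was called in both comparisons, at 2.54 ± 0.42 (log2, edgeR adjusted p = 0.00733) in PSCI over control and -2.92 ± 0.43 (adjusted p = 0.00763) in taVNS over PSCI. It kept both calls under every one of 21 alternatives. Gins2 and Gins3 were called in PSCI over control, at 1.18 and 0.88, and Gins4 was at 1.00 and not called (adjusted p = 0.0658). Cdc45 was called in both, at 1.62 and -1.78, and lost both calls without PSCI 2 (1.15 and -1.30). Its first call was also lost without control 2 or 3 and its second without PSCI 3 or any 1 taVNS library (adjusted p up to 0.0989 and 0.118 over the alternatives). Gins2 lost its call without PSCI 2, PSCI 3 or any 1 control library (up to 0.121) and Gins3 without PSCI 3, control 1 or control 2 (up to 0.0747).

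**Figure D4:**
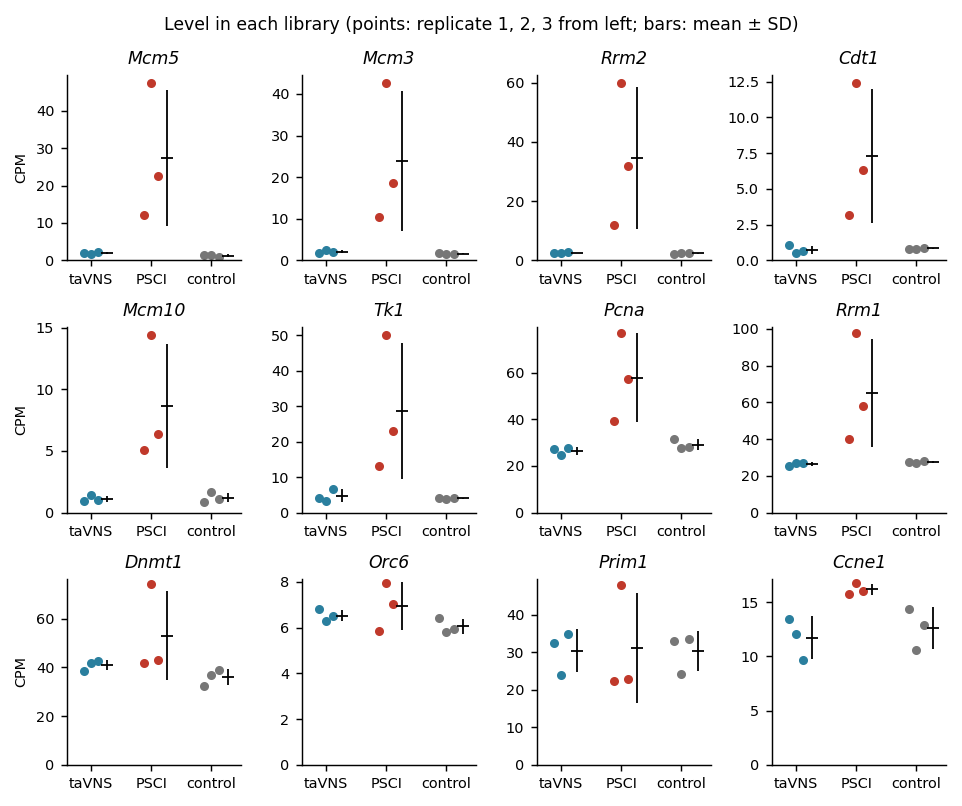
Points give the CPM of 12 genes in each library, with the mean and SD of each group (n = 3) beside them. In the top and middle rows the PSCI points lie above all taVNS and control points, and in Orc6 and Prim1 of the bottom row the groups overlap.

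The sliding clamp gene was called in PSCI, and the loader genes among the members were not, though 1 of them had a similar fold change. Pcna, the ring that tethers polymerases to DNA, had 27.1, 24.5 and 27.8 CPM in taVNS, 39.2, 77.0 and 57.4 CPM in PSCI and 31.7, 27.5 and 28.1 CPM in control. All PSCI libraries were above all others. The log2 fold change was 0.99 ± 0.21 (edgeR adjusted p = 0.0192) in PSCI over control and -1.13 ± 0.21 (adjusted p = 0.0176) in taVNS over PSCI. The first call was lost without PSCI 3, control 2 or control 3 (adjusted p up to 0.0752 over the alternatives) and the second without PSCI 3 or any 1 taVNS library (up to 0.0784). The 4 loader subunits Rfc2, Rfc3, Rfc4 and Rfc5 had log2 fold changes of 0.31 to 0.85 in PSCI over control, with adjusted p of 0.0976 to 0.231. Rfc5 had 13.2, 15.3 and 15.8 CPM in taVNS, 15.2, 18.9 and 18.3 CPM in PSCI and 14.9, 14.2 and 13.0 CPM in control. Its PSCI values lay just above control and overlapped taVNS.

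Of the 7 polymerase and primase genes, Pola1, Pola2, Pole and Pold1 rose in PSCI, while Prim1, Prim2 and Pole2 were not called there. Pola1, the catalytic subunit of polymerase alpha, had 7.29, 10.1 and 6.97 CPM in taVNS, 13.3, 22.4 and 13.4 CPM in PSCI and 9.04, 7.93 and 6.02 CPM in control. Its PSCI libraries were above all others, with log2 fold changes of 1.09 ± 0.26 (edgeR adjusted p = 0.0298) over control and -1.01 ± 0.26 (adjusted p = 0.0551) in taVNS over PSCI, and the first was not called without PSCI 2 (0.81) or any 1 control library (adjusted p up to 0.109 over the alternatives). Prim1, the catalytic primase subunit that makes the RNA primer for polymerase alpha, had 32.4, 24.0 and 34.9 CPM in taVNS, 22.4, 48 and 23.0 CPM in PSCI and 33.1, 24.3 and 33.6 CPM in control. PSCI 2 was its highest library and the other PSCI libraries its lowest. The fitted difference was 0.04 ± 0.30 (adjusted p = 0.955) in PSCI over control and -0.41 without PSCI 2. Prim2, the large primase subunit, was called in taVNS against PSCI alone (-0.84 ± 0.21, adjusted p = 0.0495), a call that held, of the single libraries left out, without PSCI 1 alone (adjusted p up to 0.240 over the alternatives). Pole, the leading-strand polymerase, was called in both, at 2.01 ± 0.41 (adjusted p = 0.0159) and -1.75 ± 0.40 (adjusted p = 0.0377). Without PSCI 2 these were 1.40 and -1.13, both called. The first was lost without any 1 control library (up to 0.0662 over the alternatives). The second was lost without any 1 taVNS or control library or PSCI 3 (up to 0.146). Pola2 and Pold1 rose by log2 values of 1.49 and 1.40 in PSCI and lost the call without PSCI 2, PSCI 3 or any 1 control library, Pola2 also without taVNS 1 or 2 (up to 0.135 and 0.112).

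For the joining of Okazaki fragments, Lig1, the replicative DNA ligase, had 17.4, 16.1 and 19.1 CPM in taVNS, 23.1, 64.9 and 30.8 CPM in PSCI and 14.9, 14.0 and 18.2 CPM in control. All PSCI libraries were above all others, and PSCI 2 was by far the highest. The log2 fold change was 1.33 ± 0.33 (edgeR adjusted p = 0.0361) in PSCI over control and -1.18 ± 0.33 (adjusted p = 0.0745) in taVNS over PSCI. The call was lost without PSCI 3, taVNS 1 or 2 or any 1 control library (adjusted p up to 0.118 over the alternatives). Fen1, the flap nuclease that prepares the ends for ligation, had 11.8, 13.8 and 13.4 CPM in taVNS, 15.1, 28.3 and 20.9 CPM in PSCI and 15.1, 12.4 and 14.0 CPM in control. It was not called (0.63 ± 0.21, adjusted p = 0.0961). Exo1, an exonuclease of mismatch repair and end resection, had 0.420, 0.490 and 0.0683 CPM in taVNS, 1.43, 5.16 and 2.28 CPM in PSCI and 0.0690, 0.142 and 0.294 CPM in control. It was near the floor outside PSCI and passed the filter only through PSCI, so that it had to differ. Exo1 was called at 4.09 ± 0.76 (adjusted p = 0.0114) in PSCI over control and -3.16 ± 0.69 (adjusted p = 0.0318) in taVNS over PSCI. Without PSCI 2 these were 3.42 (called) and -2.49 (adjusted p = 0.0586, up to 0.113 over the alternatives), the first was lost without control 2 (adjusted p up to 0.0580) and was 4.68 without control 3, and the second was also lost without PSCI 3, control 2 or any 1 taVNS library.

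All 4 nucleotide supply genes were called in both comparisons. Rrm2, the S-phase subunit of ribonucleotide reductase, had 2.59, 2.59 and 2.66 CPM in taVNS, 12.1, 59.9 and 31.9 CPM in PSCI and 2.07, 2.55 and 2.5 CPM in control. Its log2 fold change was 3.87 ± 0.51 (edgeR adjusted p = 0.00333) in PSCI over control and -3.72 ± 0.51 (adjusted p = 0.00569) in taVNS over PSCI, or 3.21 and -3.07 without PSCI 2, both called. Rrm1, the large subunit of the same enzyme, had 25.3, 27.2 and 26.9 CPM in taVNS, 40.0, 97.6 and 58.1 CPM in PSCI and 27.4, 27 and 28.1 CPM in control. Its taVNS and control libraries lay within a narrow band and its PSCI libraries above them, with log2 fold changes of 1.25 ± 0.26 (adjusted p = 0.0199) and -1.30 ± 0.26 (adjusted p = 0.0256). Tyms, which makes thymidylate, had 24.3, 22.7 and 18.7 CPM in taVNS, 35.0, 58.0 and 38.8 CPM in PSCI and 24.8, 23.2 and 18.5 CPM in control, a log2 fold change of 0.99 ± 0.20 (adjusted p = 0.0178) in PSCI over control and -1.0 ± 0.20 (adjusted p = 0.0252) in taVNS over PSCI. Tk1, the salvage thymidine kinase, changed by 2.84 ± 0.48 (adjusted p = 0.00788) and -2.60 ± 0.47 (adjusted p = 0.0160), or 2.17 and -1.92 without PSCI 2. In PSCI over control, Rrm1 lost its call without any 1 control library and Tyms without control 2 or 3 (adjusted p up to 0.0744 and 0.0689 over the alternatives). In taVNS over PSCI, Rrm1 and Tyms lost theirs without any 1 taVNS library, PSCI 3 or control 2, and Tk1 without taVNS 1 or 2 (up to 0.104, 0.0855 and 0.0828).

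Behind the fork, Chaf1a, Chaf1b and Uhrf1 rose in PSCI and fell in taVNS against PSCI, while Dnmt1 and Hells were not called. Chaf1a, the large subunit of the chromatin assembly factor that deposits histones on new DNA, had 13.4, 13.8 and 16.6 CPM in taVNS, 18.7, 30.6 and 23.4 CPM in PSCI and 13.8, 14.4 and 14.8 CPM in control. Its log2 fold change was 0.76 ± 0.18 (edgeR adjusted p = 0.0289) in PSCI over control and -0.73 ± 0.18 (adjusted p = 0.0459) in taVNS over PSCI. Both calls were lost without PSCI 2 (0.56 and -0.53), PSCI 3 or any 1 control library, the second also without any 1 taVNS library (adjusted p up to 0.0876 and 0.167 over the alternatives). Dnmt1, which copies DNA methylation onto the new strand, had 38.7, 41.8 and 42.8 CPM in taVNS, 41.9, 74.3 and 43.1 CPM in PSCI and 32.4, 37.0 and 38.8 CPM in control. It overlapped between taVNS and PSCI and was not called (0.56 ± 0.21, adjusted p = 0.127, in PSCI over control). Its partner Uhrf1, which recognises newly copied, hemimethylated DNA, was called at 1.99 ± 0.37 (adjusted p = 0.0112) and -1.52 ± 0.36 (adjusted p = 0.0417). The first was lost without control 2 (up to 0.0541 over the alternatives) and the second without each single library but PSCI 1 (up to 0.135). Chaf1b, the middle subunit of the assembly factor, was called at 1.80 and -1.76, the second lost without any 1 taVNS library (up to 0.0692).

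Among the checkpoint and repair genes, Clspn, the Claspin adaptor of the replication checkpoint, had 3.92, 2.38 and 2.12 CPM in taVNS, 6.07, 15.9 and 8.16 CPM in PSCI and 4.62, 3.61 and 4.63 CPM in control. It was called in taVNS against PSCI (log2 fold change -1.84 ± 0.38, edgeR adjusted p = 0.0271) but not in PSCI against control (1.23 ± 0.37, adjusted p = 0.0708). Its call was lost without PSCI 3, control 2 or any 1 taVNS library (up to 0.102 over the alternatives). Brca1, which acts in repair of broken forks and double-strand breaks, had 1.47, 2.17 and 1.23 CPM in taVNS, 4.57, 14.3 and 6.27 CPM in PSCI and 2.14, 2.48 and 1.98 CPM in control. It was called in both, at 1.92 ± 0.42 (adjusted p = 0.0227) and -2.36 ± 0.44 (adjusted p = 0.0168), and at 1.30 and -1.73 without PSCI 2. The first call was lost without any 1 control library (up to 0.0898 over the alternatives) and the second without any 1 taVNS library (up to 0.0843). Parpbp, a partner of PARP1, had 0.0701, 0.140 and 0.137 CPM in taVNS, 2.32, 6.82 and 2.94 CPM in PSCI and 0.0690, 0.425 and 0.147 CPM in control. It was under or near the floor outside PSCI, with log2 fold changes of 4.19 ± 0.63 (adjusted p = 0.00560) and -5.02 ± 0.69 (adjusted p = 0.00572), or 3.58 and -4.41 without PSCI 2. The value in PSCI over control was 5.12 without control 2, and both calls held under all 21 alternatives. Parpbp passed the filter only through PSCI and so had to differ, which limits what these calls show.

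Of the genes that govern entry into S phase, E2f1, E2f7 and E2f8 rose in PSCI and the cyclin E genes Ccne1 and Ccne2 were not called. E2f2 to E2f6, which are not among the 48, were not called either, with log2 fold changes of -0.18 to 0.72, and E2f7 and E2f8 passed the filter only through PSCI. E2f8, an atypical E2F that represses E2F targets late in S phase and is itself a target, had 1, 0 and 5 counts in taVNS, 29, 105 and 50 counts in PSCI and 0 counts in all 3 control libraries. Against a floor of 3 counts over the control group it was at least 56.7-fold higher in PSCI (edgeR adjusted p = 0.00927), or at least 37.1-fold without PSCI 2. In taVNS it was lower than in PSCI (log2 fold change -4.76 ± 0.87, adjusted p = 0.0262), a call lost without taVNS 1 or 2 or PSCI 3 (adjusted p up to 0.123 over the alternatives). That value was -4.16 without PSCI 2 and -6.49 without taVNS 3, which held most of the taVNS counts. Its relative E2f7 had 0.911, 0.140 and 0.615 CPM in taVNS, 2.11, 7.58 and 4.90 CPM in PSCI and 0.207, 0.425 and 0.441 CPM in control. It was called at 3.74 ± 0.66 (adjusted p = 0.00987) in PSCI over control and -3.11 ± 0.63 (adjusted p = 0.0242) in taVNS over PSCI, the second lost without PSCI 3, control 2 or any 1 taVNS library (up to 0.0963 over the alternatives). E2f1, an activator, was called in PSCI against control (1.61 ± 0.38, adjusted p = 0.0304) and lost the call without PSCI 2 (1.31), PSCI 3, control 2 or control 3 (up to 0.116 over the alternatives). Ccne1, a cyclin E that activates CDK2 at the start of S phase, had 13.5, 12.1 and 9.63 CPM in taVNS, 15.8, 16.8 and 16.0 CPM in PSCI and 14.4, 10.6 and 12.9 CPM in control. Its PSCI libraries lay above all others by a small margin, without passing the test (0.36 ± 0.16, adjusted p = 0.200). Ccne2 had 9.67, 8.53 and 6.63 CPM in taVNS, 9.27, 12.7 and 10.8 CPM in PSCI and 7.59, 8.71 and 9.26 CPM in control (0.36 ± 0.19, adjusted p = 0.273).

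The fold changes in PSCI are also given by the members' level in control. Of the 14 members under 2 CPM in control, 6 passed the filter only through PSCI and had to differ. The other 8 were all called higher in PSCI, with a median log2 fold change of 2.71. Of 21 members at 2 to 10 CPM 13 were called, with a median of 1.40, and of 13 members over 10 CPM 6 were called, with a median of 0.76. The control libraries enter both the level and the fold change, so this is a description. Per gene length, the highest control means were those of Pcna, at 32.2 RPKM, and Prim1, at 23.4 RPKM.

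The 3 PSCI libraries differed among themselves in a fixed order for nearly all members. PSCI 2 was the highest of the 3 for 47 of 48 members, and the order PSCI 2, PSCI 3, PSCI 1 held for 46 (95.8%). Over all genes tested this order held for 28.4%, and over the genes called higher in PSCI for 70.1%. PSCI 2 exceeded PSCI 1 by a median of 2.42 times, from 1.06 times in Ccne1 to 5.16 times in Cdc6. The summed level of the 48 members was 398, 387 and 394 CPM in taVNS, 569, 1280 and 771 CPM in PSCI and 399, 372 and 388 CPM in control. The taVNS and control sums overlapped and spanned a narrow range, and all PSCI sums were above them. In taVNS 3, the other library with high meningeal markers, the sum was like that of the other taVNS libraries.

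Most other genes of replication were not called, and those that were had the direction of the members. Of 81 further genes of licensing, fork, nucleotide, chromatin, checkpoint and E2F function, 22 were called higher in PSCI than in control and 0 lower. The median log2 fold change was 0.30, 59 were not called, and 16 were fitted lower. In taVNS against PSCI 13 were called lower and 0 higher, with a median of -0.34. Here 68 were not called, and 13 were fitted higher. Over all genes 7.71% were called higher in PSCI against control and 4.91% lower in taVNS against PSCI. Asf1b, a histone chaperone of dividing cells, had 0.280, 0.629 and 0.273 CPM in taVNS, 2.18, 6.25 and 4.90 CPM in PSCI and 0.138, 0.212 and 0.147 CPM in control (4.67 ± 0.56, edgeR adjusted p = 0.00219, in PSCI over control and -3.47 ± 0.49, adjusted p = 0.00669, in taVNS over PSCI). Ccna2, cyclin A2, which acts in S phase and G2, had 0.701, 0.629 and 0.683 CPM in taVNS, 4.70, 27.4 and 13.1 CPM in PSCI and 0.621, 0.992 and 0.735 CPM in control (4.25 ± 0.60, adjusted p = 0.00428, and -4.47 ± 0.62, adjusted p = 0.00572, or 3.50 and -3.71 without PSCI 2). Bard1, the partner of Brca1, was called at 3.58 and -3.01 (2.86 and -2.29 without PSCI 2), and Ticrr, a factor of origin firing, at 3.56 and -3.39. With limma-voom, Ccna2 and Bard1 lost their calls in PSCI against control (adjusted p = 0.0545 and 0.061). Bard1 lost its call in taVNS without PSCI 3 or any 1 taVNS library (adjusted p up to 0.103 over the alternatives). Ticrr lost its call in PSCI without PSCI 3 or any 1 control library (up to 0.0888), and that in taVNS without taVNS 1 or 2, PSCI 2 or 3 or control 1 or 2 (up to 0.119). The taVNS value of Ticrr was -4.31 without taVNS 3. The remaining origin recognition genes on this list (Orc2 to Orc5), the single-strand binding genes Rpa1, Rpa2 and Rpa3 and Cdk2 were not called in PSCI against control.

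Mitosis genes and most microglia and macrophage markers moved with the replication genes. Few markers of the other cell types were called, and the part of any cell type in the result was not tested. All 20 mitosis genes were called higher in PSCI and lower in taVNS, with summed levels of 53.3, 52.6 and 62.4 CPM in taVNS, 215, 707 and 375 CPM in PSCI and 50.0, 51.6 and 47.2 CPM in control. These sums had the same order among the PSCI libraries as those of the replication genes. Of 8 microglia and macrophage markers 6 were called higher in PSCI against control, and in taVNS against PSCI 4 were called lower and 1, Tmem119, higher. Their sums were 270, 285 and 339 CPM in taVNS, 463, 717 and 564 CPM in PSCI and 251, 220 and 184 CPM in control. Of 8 astrocyte markers Gfap and Aqp4 were called higher in PSCI, and the sums were 4370 to 5330 CPM in taVNS, 8340 to 11200 CPM in PSCI and 4050 to 5650 CPM in control. Gfap carried the difference: without it the sums were 3470 to 3950 CPM in taVNS, 3480 to 4240 CPM in PSCI and 3420 to 4450 CPM in control, and Slc1a2, Aldh1l1, Aldoc and S100b had fitted log2 values of -0.90 to -0.26 in PSCI over control, none of them called. Of 8 markers of oligodendrocyte precursors 1 was called higher (Vcan) and 1 lower (Gpr17) in PSCI, with sums of 470 to 501 CPM in taVNS, 532 to 590 CPM in PSCI and 480 to 566 CPM in control. Of 7 neural stem cell and neuroblast markers tested 0 were called by edgeR, and the sums were 109 to 126 CPM in taVNS, 98.8 to 116 CPM in PSCI and 95.7 to 121 CPM in control.

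Of 8 meningeal and fibroblast markers 0 were called by edgeR in PSCI against control, with sums of 71.2, 297 and 85.6 CPM in PSCI and 65.8, 78.5 and 95.6 CPM in control. Without PSCI 2 and taVNS 3, 24 of the 48 members were called in PSCI against control, and 1173 genes of all. Of 7 T cell markers found, 4 were tested, of which Cd8a was called higher in PSCI. Their sums were 7.86 to 18.3 CPM in taVNS, 13.6 to 25.1 CPM in PSCI and 4.53 to 11 CPM in control, with Cd3e at 14.2 CPM in PSCI 1 and at 0 to 1.17 CPM in the other libraries. Cd3d was at 0 in all taVNS and PSCI libraries. Cd8a had 0.14, 0.21 and 1.02 CPM in taVNS, 0.341, 9.75 and 2.87 CPM in PSCI and 0 in every control library. PSCI 2 was thus its highest library, and PSCI 1 lay below taVNS 3. Endothelial and pericyte markers (8, 0 called by edgeR) summed to 179 to 230 CPM in taVNS, 191 to 201 CPM in PSCI and 113 to 211 CPM in control. The 7 excitatory neuron markers tested, 0 of them called, had their lowest sum in PSCI 2, at 2520 CPM, against 4250 to 6740 CPM in the other libraries.

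**Figure D5:**
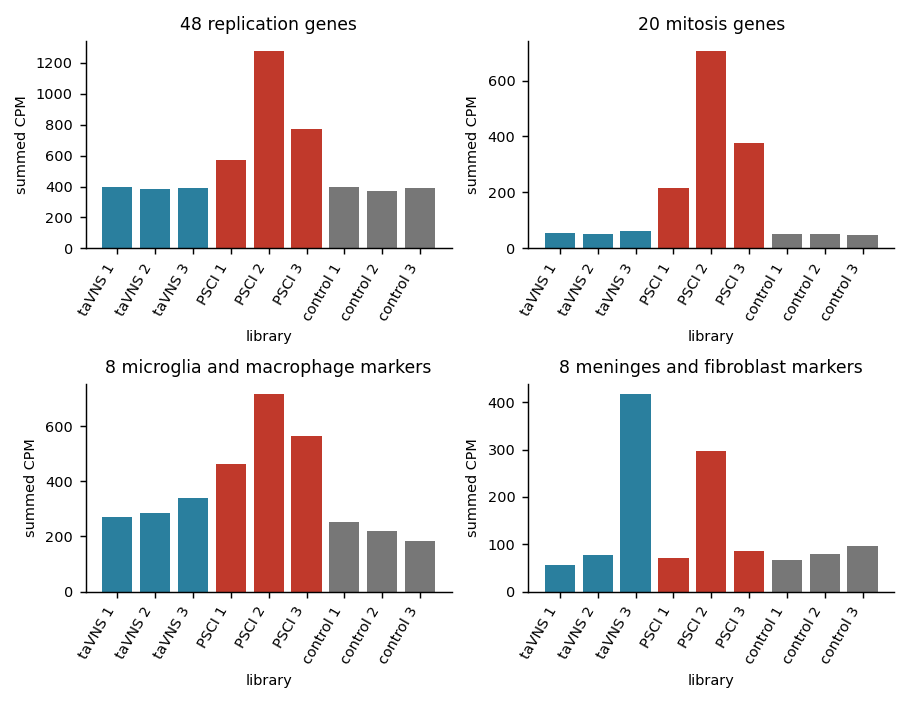
Bars give the summed CPM of 4 gene lists in each of the 9 libraries, from 0. Replication genes, mitosis genes and microglia and macrophage markers are highest in the 3 PSCI libraries, in the order PSCI 2, PSCI 3, PSCI 1, while meningeal and fibroblast markers are high in taVNS 3 and PSCI 2.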

How the data were processed

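RNA was enriched with oligo dT and made into strand-marked libraries, per the labels' protocols; whether counting used strand is not given in the sources used here. Per library the authors deposited estimated (expected) counts and RPKM for 18733 genes. HISAT2 2.0.4, RSEM 1.2.8 and the build mRatBN7.2 stand in the submitters' processing notes, without roles or annotation. The extraction text speaks of mice, all other labels of rats.

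The deposited estimated counts were rounded, filtered with filterByExpr (14840 genes), scaled by TMM and fitted on group in all 9 libraries with edgeR 4.0.16, whose quasi-likelihood F test gave the p-values (6 residual degrees of freedom, R 4.3.3). The standard error is the log2 fold change divided by the root of F. Groups come from the titles. RPKM, as deposited by the authors, was used for levels between genes and, with limma 3.58.1, as an alternative at pseudocounts of 0.1 and 1. Other alternatives were DESeq2 1.42.0, limma-voom, other scaling and filters, a replicate block and leaving out libraries. The script was tested on simulated data with known changes. At a log2 change of 1 it called 60% of the changed genes in PSCI against control and 55% in taVNS against PSCI. At a log2 change of 2 it called 89% and 90%. A gene that was not called may therefore still have changed. Floors cover counting error only, because reads lacking molecular identifiers may repeat the same molecule.

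Genes described in full were the 2 most abundant of each of 9 roles, the 6 called members of largest change with at least 1 CPM in each of the first 2 comparisons, Mcm10, and the 3 other replication genes of largest change in each; further genes are named for a role or a contrast, after their values were seen. The members and lists were chosen with earlier results of these data known. All 48 members matched a RefSeq entry, 40 a promoter window. Coordinates are those of RefSeq on GRCr8, not of the authors' build. Protein sequences were not used here.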

Additional observations from a re-analysis of the deposited data

How the results depend on the processing

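Under 21 alternatives (those on RPKM and DESeq2 change the test along with the unit or scaling), the direction was kept throughout by 47 of 48 members in PSCI against control and by 46 in taVNS against PSCI. The calls of Cdt1, Mcm2, Mcm3, Mcm5, Mcm10, Gins1, Rrm2, Tk1, Chaf1b, Parpbp, E2f7 and E2f8 in PSCI, and of Mcm5, Gins1 and Parpbp in taVNS against PSCI, held in every alternative that gave a value. Of these genes Parpbp, E2f7 and E2f8 passed the filter only through PSCI and had to differ. The 31 calls in PSCI against control became 18 when only those 2 groups were fitted, and 12 to 41 when 1 library was left out. The 25 calls in taVNS against PSCI became 39 with DESeq2, 10 with limma-voom, 6 with only the 2 groups, 15 without PSCI 2 and taVNS 3, 16 on log2(RPKM + 1), and 6 to 39 when 1 library was left out. Over all genes DESeq2 called 2257 against 1461, and 1550 against 854. With 1 library left out, the calls over all genes ran from 548 to 2255 in PSCI against control. In taVNS against PSCI they ran from 172 to 1707. With only the 2 groups they were 806 and 250. In taVNS against control 0 members were called in any alternative. The losses given above for single genes are mostly those on leaving out 1 library. Some calls were also lost under other alternatives, such as those of Cdc6, Mcm6 and Gins2 in PSCI with limma-voom. For single genes 1017 of 1216 values kept their direction and side of the threshold, 169 lost the call and 14 gained it. The 16 that turned round belong to Prim1 and Orc6, neither called. Prim1 in PSCI over control was -0.04 with limma-voom, -0.41 to 0.22 when 1 library was left out (-0.41 without PSCI 2, -0.10 without control 2), -0.43 without PSCI 2 and taVNS 3, -0.01 on log2(RPKM + 0.1) with and without a filter, and -0.00 on log2(RPKM + 1). In taVNS over PSCI it was 0.04 with limma-voom, -0.22 to 0.42 when 1 library was left out (0.11 without taVNS 2, 0.42 without PSCI 2), 0.32 without both libraries and 0.02 on all 3 RPKM scales. Orc6 in taVNS over PSCI was -0.20 to 0.02 when 1 library was left out (0.02 without PSCI 2) and 0.03 without both. Fits on fewer libraries have fewer degrees of freedom; otherwise the cause was not tested. At the floor of 3 counts, levels of E2f8, Parpbp and Exo1 outside PSCI are not resolved.

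The replicate numbers were not taken as pairs: libraries of the same number correlated by -0.21 to 0.18 in PSCI and control and by -0.47 to 0.04 in taVNS and PSCI, and not every library correlated best with its own number. With a replicate block 26 members were called in PSCI against control, 15 in taVNS against PSCI and 0 in taVNS against control. Over all genes the counts were 1084, 518 and 0.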
